A study of Mus musculus with 6 samples.

Results

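Immunoglobulin variable (V) segments were examined in CD11b+ cells sorted from mouse spleen, as 176 of the 348 heavy, kappa and lambda V segments in a table of 55335 genes. The members were chosen by their symbol (Ighv, Igkv or Iglv, with none marked -ps) and by a measured value, a count of 100 or more summed over all 6 libraries without regard to group. They comprised 87 of 185 heavy, 86 of 160 kappa and 3 of 3 lambda segments and held 99.5% of all V segment counts. Of the other segments, 105 had 0 counts in every library and 67 had 1 to 99. The members nearest the minimum were Igkv4-78 and Igkv4-90, with 102 counts each, and those just under it were Igkv4-92 with 91 and Igkv6-29 with 87. The annotation classes 2 members, Ighv1-41 and Ighv8-10, as pseudogenes.

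The cells came from wild-type mice of 2 groups with 3 biological replicates each. The first had myocardial infarction alone (MI), and the other had infarction together with renal denervation, which interrupts the nerves of the kidney (MI+RDN). Both groups therefore carried an infarct, and no uninjured or sham group was analysed here. Time after infarction, strain, age and pooling of animals were not given in the sources used here. CD11b marks neutrophils, monocytes and macrophages above all, and it is also found on some B cells, among them B-1 cells. The V segments therefore report on a minority of the sorted material.

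As background, a B cell joins a V segment to a J segment (with a D segment between them in the heavy chain) and thereby fixes the antibody that it and its daughter cells make. In mouse, most light chains are kappa and few are lambda. Resting B cells carry modest amounts of immunoglobulin mRNA, whereas plasma cells make very large amounts, so a few secreting cells of a clone can lift a segment in bulk RNA. Bulk counts measure transcripts and not cells, do not say which heavy chain was paired with which light chain, and cannot tell fewer cells from less RNA per cell.

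The V segments are near copies of each other, which limits what a count assigned to any of them can mean. RNA sequences for all 176 members were found in GENCODE M21 (build GRCm38), with coding parts of 329 to 394 bases, so that segments are compared below without a correction for length. The closest other segment of the same locus matched at a median of 95.3% of aligned bases, and 92 members had a neighbour at 95% identity or more. A median of 77.3% of a member's 50-base windows occurred in no other V segment, and 25 members had under 50% of such windows. How reads that fit several segments were counted is not given in the sources used here, so values for single segments carry that uncertainty. Lambda segments Iglv1 and Iglv2 are shown because both were among the 10 leading segments of every library and are close copies. The last 300 coding bases of each are printed 5′ to 3′, with capitals at the 8 bases where they differ.

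Iglv1: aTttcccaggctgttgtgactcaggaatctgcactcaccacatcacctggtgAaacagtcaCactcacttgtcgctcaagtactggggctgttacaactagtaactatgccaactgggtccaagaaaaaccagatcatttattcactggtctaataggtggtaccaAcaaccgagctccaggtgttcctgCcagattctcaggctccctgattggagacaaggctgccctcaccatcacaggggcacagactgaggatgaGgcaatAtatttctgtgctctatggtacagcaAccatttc

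Iglv2: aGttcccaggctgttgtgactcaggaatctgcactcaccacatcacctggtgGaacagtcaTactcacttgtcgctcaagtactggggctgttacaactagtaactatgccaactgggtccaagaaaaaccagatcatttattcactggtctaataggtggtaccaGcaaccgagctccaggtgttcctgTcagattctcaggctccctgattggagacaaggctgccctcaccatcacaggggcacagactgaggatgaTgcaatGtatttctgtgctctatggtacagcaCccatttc

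The next sequences belong to the leading kappa and the leading heavy segment of the libraries where a single segment took its highest shares. They are Igkv5-39 and Ighv1-81 in MI replicate 1, and Igkv1-135 and Ighv3-6 in MI+RDN replicate 2. Again the last 300 coding bases are shown, and capitals mark bases that differ from the closest other segment, which is Igkv5-45, Ighv1-85, Igkv1-133 and Ighv3-1 in that order. Over the coding part the identity was 90.5%, 92.9%, 96.7% and 91.7%. For Igkv5-39 all 50-base windows (100%) were its own.

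Igkv5-39: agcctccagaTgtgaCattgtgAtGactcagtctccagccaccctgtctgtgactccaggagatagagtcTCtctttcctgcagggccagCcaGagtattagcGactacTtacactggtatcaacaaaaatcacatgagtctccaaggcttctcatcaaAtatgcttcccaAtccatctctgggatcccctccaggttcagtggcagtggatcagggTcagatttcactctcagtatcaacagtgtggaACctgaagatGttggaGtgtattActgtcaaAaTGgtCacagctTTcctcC

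Ighv1-81: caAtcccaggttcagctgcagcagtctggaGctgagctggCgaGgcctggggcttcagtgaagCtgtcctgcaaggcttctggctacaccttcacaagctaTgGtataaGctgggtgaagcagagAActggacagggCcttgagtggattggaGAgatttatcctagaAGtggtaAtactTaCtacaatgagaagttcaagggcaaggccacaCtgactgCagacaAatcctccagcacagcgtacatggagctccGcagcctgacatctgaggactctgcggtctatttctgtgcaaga

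Igkv1-135: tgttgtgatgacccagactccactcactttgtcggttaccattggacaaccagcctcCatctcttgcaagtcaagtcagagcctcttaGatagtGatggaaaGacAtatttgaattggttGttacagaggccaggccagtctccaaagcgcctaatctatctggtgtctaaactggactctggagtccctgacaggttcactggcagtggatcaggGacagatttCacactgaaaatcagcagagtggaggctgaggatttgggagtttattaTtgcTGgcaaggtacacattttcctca

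Ighv3-6: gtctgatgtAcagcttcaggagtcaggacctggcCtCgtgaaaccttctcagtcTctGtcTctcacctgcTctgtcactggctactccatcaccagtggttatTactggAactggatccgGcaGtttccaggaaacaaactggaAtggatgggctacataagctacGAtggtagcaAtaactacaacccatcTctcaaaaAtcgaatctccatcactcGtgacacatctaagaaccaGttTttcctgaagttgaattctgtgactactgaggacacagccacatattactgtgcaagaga

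V segments took a small part of each library, and their share differed more between replicates than between the group means. Library totals ranged from 21663440 to 28013900 counts, of which member segments took 30167 to 93256. The segment share of all counts was 0.218%, 0.139% and 0.290% in MI replicates 1 to 3 and 0.172%, 0.183% and 0.379% in MI+RDN replicates 1 to 3. The means were 0.216% ± 0.0755 for MI against 0.245% ± 0.116 for MI+RDN (SD, n = 3). MI+RDN replicate 3 stood above all other libraries and MI replicate 2 below them, and the groups overlapped. Without MI+RDN replicate 3 the difference between the groups turned from 0.0288 to -0.0381 percentage points. After scaling to CPM (a count divided by the scaled library total) with factors that equalise the bulk of genes (TMM), the summed level of the segments was 2048 ± 660 CPM for MI against 2574 ± 1242 for MI+RDN. By CPM, 85 of the 176 members were highest in MI+RDN replicate 3.

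The summed level of a B cell marker list and the ratio of segment CPM to it did not overlap between the groups. The list (such as Cd79a and Ms4a1, with 23 of its 24 symbols found) summed to 1239 to 1613 CPM for MI against 846 to 1182 for MI+RDN, with all MI+RDN libraries below all MI libraries. Of its 23 tested genes, 22 had a negative log2 fold change and 1 passed the test across all genes (Tnfrsf13c, the receptor for the B cell survival factor BAFF, -1.23 on the log2 scale, edgeR Benjamini-Hochberg adjusted p = 0.0439), with a median of -0.87. That is 1 of 23, beside 1.01% of all genes called in either direction. Cd37, a tetraspanin of B cells and other leukocytes, was the gene with a positive value, at means of 231 CPM for MI against 303 for MI+RDN. The ratio of summed segment CPM to summed B cell list CPM was 1.53, 1.10 and 1.66 in MI replicates 1 to 3. It was 2.13, 2.22 and 3.39 in MI+RDN replicates 1 to 3, so all MI+RDN libraries stood above all MI libraries. The ratio of the group means was 1.81, and it ranged from 1.52 to 1.96 with any single library left out. With Cd79b alone, a signalling chain of the B cell receptor, as the divisor the ratio was 26.1 ± 4.40 for MI against 56.4 ± 10.6 for MI+RDN (SD, n = 3), again without overlap. These ratios were formed after the data had been seen, and the level of the B cell list in each group was already known.

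**Figure D1:**
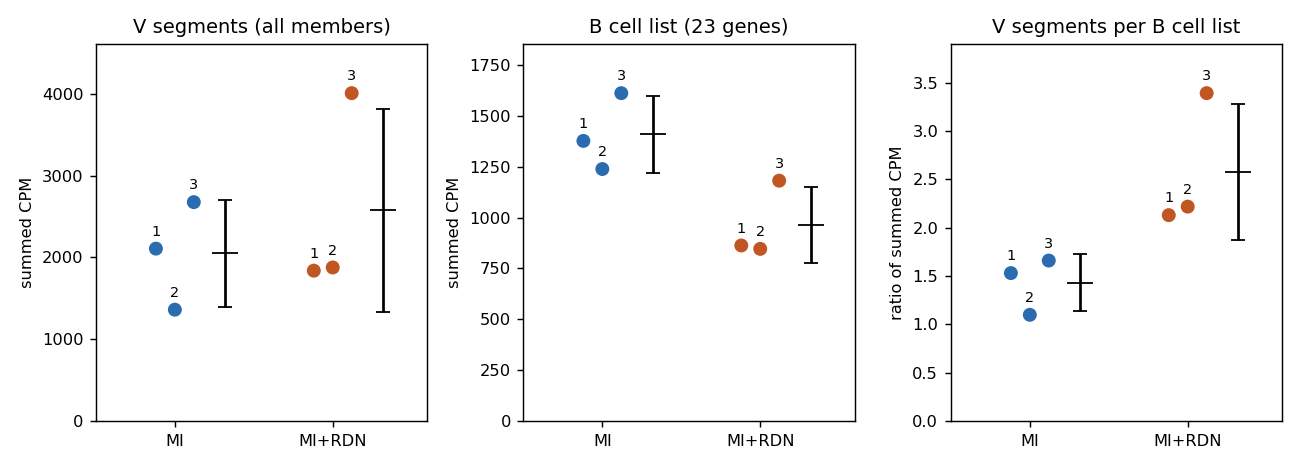
Summed CPM of the 176 V segments, summed CPM of the 23 B cell list genes and the ratio of these sums (vertical axes, linear and starting at 0) in each library of MI (blue) and MI+RDN (orange), with replicate numbers beside the points and the mean ± SD beside each group. Segment sums overlap between the groups, with MI+RDN replicate 3 highest at 4008 CPM, while the ratio is 1.10 to 1.66 for MI against 2.13 to 3.39 for MI+RDN.

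The constant region genes had no called change. The ratio of segment CPM to constant gene CPM stayed between 0.246 and 0.259 in all 6 libraries. Ighm, the constant region of IgM, stood at 5646, 3716 and 7257 CPM for MI against 5002, 5196 and 11269 for MI+RDN. Igkc, the kappa constant region, stood at 1877, 1285 and 2382 CPM for MI against 1730, 1600 and 3752 for MI+RDN. MI+RDN replicate 3 was highest and MI replicate 2 lowest for both, as for the segments. Ighd, the constant region of IgD that mature resting B cells carry, went the way of the B cell list, at 89.3, 84.5 and 107 CPM for MI against 29.6, 35.3 and 64.7 for MI+RDN. Its groups did not overlap, yet its log2 fold change of -1.12 (SE 0.272) missed the threshold (edgeR Benjamini-Hochberg adjusted p = 0.0836). Among the class-switched genes, Igha (IgA) had a mean of 243 ± 144 CPM for MI and 128 ± 85.2 for MI+RDN, Ighg3 at 74.8 ± 27.4 and 101 ± 49.9, Ighg2b at 54.1 ± 20.3 and 36.7 ± 2.90, and Ighg2c at 27.7 ± 8.58 and 25.1 ± 14.3 (SD, n = 3). Ighg1 lay between 0.0770 and 8.35 CPM over the libraries, and Ighe was near 0 and was not tested. The lambda constant genes Iglc1, Iglc2 and Iglc3 had log2 fold changes of 0.40, -0.04 and 0.25. None of the 11 constant genes tested passed.

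Of 18 plasma cell genes, 1 was called lower (Slamf7, a surface receptor that dendritic and NK cells carry as well, -0.97 on the log2 scale, edgeR Benjamini-Hochberg adjusted p = 0.0442) and 0 higher, with a median log2 fold change of 0.13. Jchain, which joins IgM and IgA into polymers, stood at 363, 242 and 538 CPM for MI against 293, 316 and 666 for MI+RDN. Segment CPM per Jchain CPM was 4.97 to 5.81 for MI against 5.93 to 6.27 for MI+RDN. Xbp1, a secretory regulator that many cells express, lay between 357 and 468 CPM in all libraries. Genes of earlier B cell development were nearly silent: Rag2, Vpreb2 and Igll1 had 0 counts in all 6 libraries, and the 6 genes of that list summed to at most 0.523 CPM in any library. Pou2f2 (Oct-2), a factor that binds the octamer element of V promoters, stood at 152 ± 0.835 CPM for MI against 121 ± 4.002 for MI+RDN and missed the threshold (edgeR Benjamini-Hochberg adjusted p = 0.0792). Its coactivator Pou2af1 stood at 55.8 ± 5.75 and 48.2 ± 15.4 CPM. The 8 T cell genes (1 called lower, Cd3d) summed to 77.6 to 91.6 CPM for MI against 43.1 to 57.3 for MI+RDN. The 9 neutrophil genes (2 called higher, Ly6g and Retnlg) summed to 9804 to 15786 CPM for MI against 17661 to 42049 for MI+RDN. The 6 monocyte and macrophage genes (1 called higher, Ly6c2) summed to 13066 to 14025 against 12523 to 16485 CPM. The part of these shifts in cell content in the segment results was not tested.

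Within the segment counts, the heavy share varied little over the libraries and the lambda share varied more. Heavy segments took 39.2%, 38.1% and 38.0% of segment counts for MI against 38.7%, 36.0% and 36.5% for MI+RDN. Kappa segments took 50.5% to 54.7% over the libraries and lambda segments 6.58% to 11.4%. As a part of light chain counts alone, lambda stood at 12.7%, 12.9% and 18.4% for MI against 10.7%, 16.4% and 16.3% for MI+RDN, with means of 14.7% ± 3.24 and 14.5% ± 3.23. The groups overlapped for each chain.

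Counts were spread over many segments in every library, and concentration did not separate the groups. The inverse Simpson index, the number of equally used segments that would give the same concentration, was 43.8, 56.3 and 49.4 for MI against 58.2, 37.1 and 50.3 for MI+RDN. The extremes both lay within MI+RDN, with replicate 1 the most even library and replicate 2 the most concentrated. Means were 49.8 ± 6.29 and 48.5 ± 10.7, and the sign of this difference turned without MI replicate 2 or without MI+RDN replicate 2. Heavy segments alone gave 28.03 to 31.3 in 5 of the libraries and 21.3 in MI+RDN replicate 2. Kappa segments alone gave 17.8 in MI+RDN replicate 2 and 18.9 in MI replicate 1, against 27.6 to 30.7 in the other libraries. Each library's own 10 leading segments held 37.5%, 33.4% and 37.1% of its segment counts for MI against 31.6%, 41.4% and 35.5% for MI+RDN. At an equal depth of 30167 segment counts, 165 to 173 members were expected to be seen in the MI libraries and 169 to 174 in the MI+RDN libraries, and 158 members had counts in all 6 libraries.

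**Figure D2:**
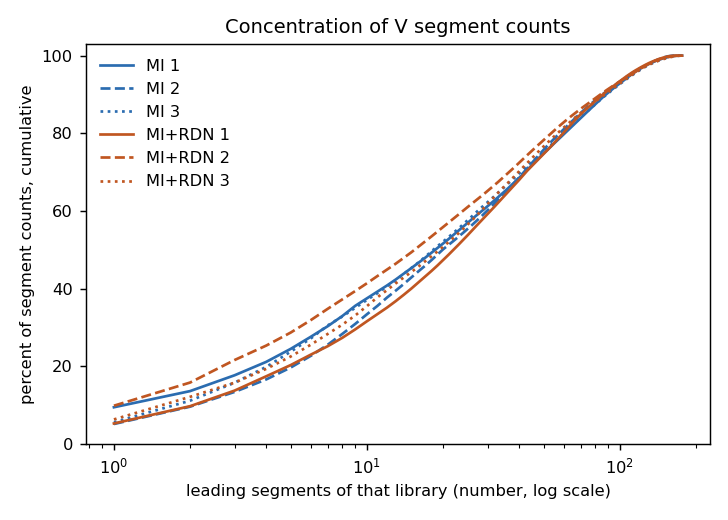
Cumulative percent of segment counts (vertical axis, linear) against the number of leading segments, ranked within each library (horizontal axis, log scale), for 3 MI (blue) and 3 MI+RDN (orange) libraries. MI+RDN replicate 2 lies highest and MI+RDN replicate 1 lowest at 10 segments, at 41.4% and 31.6%, with the MI libraries between them.

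The leading segments were a mixture of a shared core and of segments prominent in a single library. Over the 6 libraries, 24 members held 50% of the mean share, 28 had a mean share of 1% or more and 32 were under 0.1%. The 10 leading lists named 21 different segments, of which 3 (Iglv1, Iglv2 and Igkv1-110) were in all 6 lists and 6 were in a single list. Iglv1 led on average, at 4.16%, 4.47% and 5.55% of segment counts for MI against 3.68%, 5.81% and 6.35% for MI+RDN. Igkv1-110 ranged from 2.17% to 3.92% and Iglv2 from 2.68% to 5.63%. The other members of the upper 10 by mean share were Igkv1-135, Igkv5-39, Igkv1-117, Ighv3-6, Igkv10-96, Ighv6-3 and Igkv3-2. Ighv6-3, a heavy segment, ranged from 1.73% to 3.35%. As a share, Igkv10-96 was lower in every MI+RDN library (1.59%, 1.53% and 2.41%) than in any MI library (2.63%, 3.003% and 4.06%). It was among 15 of 176 members whose shares did not overlap, and by CPM its groups overlapped.

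**Figure D3:**
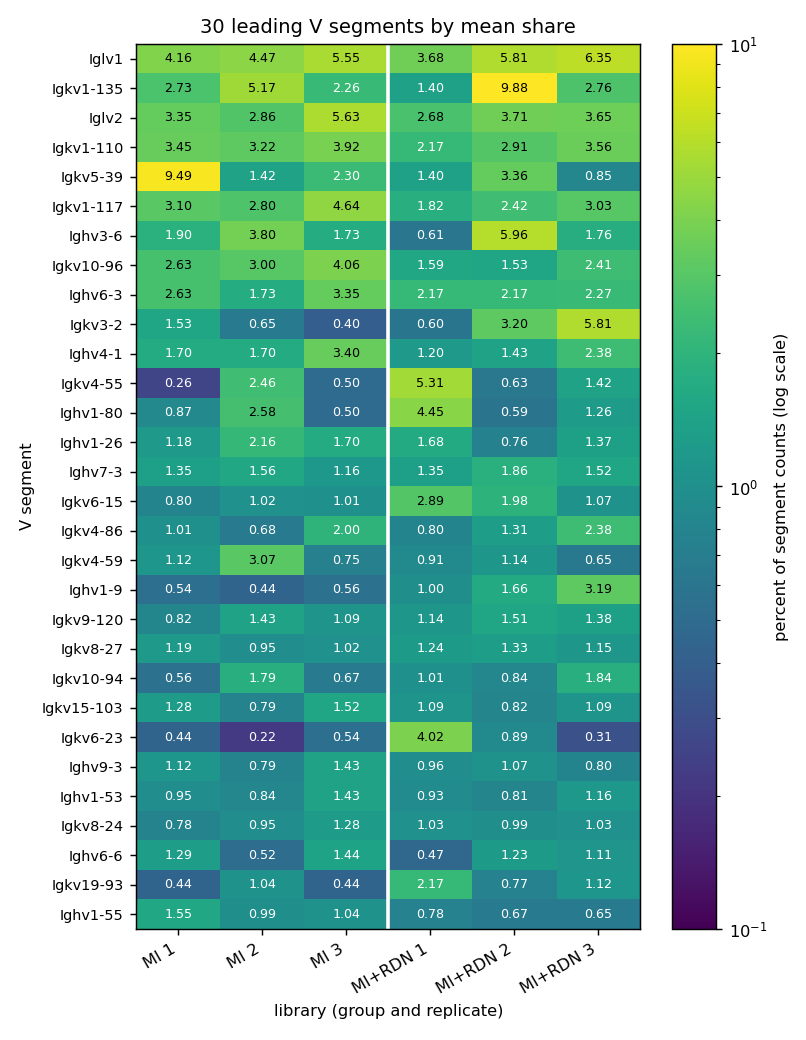
Percent of segment counts (colour on a log scale, value printed in each cell) for the 30 segments with the highest mean share (rows) in 3 MI and 3 MI+RDN libraries (columns, split by the white line). Iglv1 lies between 3.68% and 6.35% in all columns, whereas Igkv5-39 reaches 9.49% in MI replicate 1 alone and Igkv1-135 9.88% in MI+RDN replicate 2.

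Igkv5-39 took 9.49% of segment counts in MI replicate 1 (95% exact binomial interval 9.23% to 9.75%, which covers counting error only) and 0.848% to 3.36% in the others. In the same library the heavy segment Ighv1-81 took 4.08%, against 0.0762% to 0.517% elsewhere. MI replicate 1 thus carried a leading kappa and a leading heavy segment that stood apart together. As levels, Igkv5-39 was at 200 CPM there and at 19.3 to 63.0 in the other 5 libraries, and Ighv1-81 was at 85.9 CPM against 1.04 to 9.51.

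Igkv1-135 and Ighv3-6 were high and low in the same libraries. Igkv1-135 took 2.73%, 5.17% and 2.26% for MI against 1.40%, 9.88% and 2.76% for MI+RDN. Ighv3-6 took 1.90%, 3.80% and 1.73% for MI against 0.605%, 5.96% and 1.76% for MI+RDN. Both were highest in MI+RDN replicate 2, second in MI replicate 2 and lowest in MI+RDN replicate 1. Igkv4-55 and Ighv1-80 formed another such set. Igkv4-55 took 0.263%, 2.46% and 0.501% for MI against 5.31%, 0.631% and 1.42% for MI+RDN, and Ighv1-80 took 0.873%, 2.58% and 0.501% and then 4.45%, 0.590% and 1.26%. Both were highest in MI+RDN replicate 1 and second in MI replicate 2. In MI+RDN replicate 3, Igkv3-2 took 5.81% (0.395% to 3.20% elsewhere) and Ighv1-9 took 3.19% (0.444% to 1.66% elsewhere). These heavy and light segments were set side by side after their values had been seen, and bulk counts do not show that they came from the same cells.

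In 18 of the 176 members a single library held over 50% of the summed share. MI+RDN replicate 1 was that library for 9 of them, MI replicate 1 for 3, MI replicates 2 and 3 and MI+RDN replicate 3 for 2 each, and MI+RDN replicate 2 for 0. Igkv1-99 was the most uneven, at 1.21% in MI+RDN replicate 1 and at most 0.0768% elsewhere, with 0 of 30167 segment counts in MI replicate 2 (which allows up to 0.00994%) and 0 of 51361 in MI+RDN replicate 2 (up to 0.00584%). Igkv11-125 stood at 1.32% in MI+RDN replicate 1 and at most 0.143% elsewhere. Ighv1-36 stood at 2.14% in MI replicate 2 against at most 0.235%, Ighv10-3 at 1.65% in MI+RDN replicate 1 against at most 0.253%, and Igkv6-23 at 4.02% in MI+RDN replicate 1 against at most 0.888%. The others named by the same rule were Igkv4-54, Igkv4-71, Ighv5-2 and Igkv6-14, which peaked at 0.130% to 0.349%.

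Likeness between libraries covered overlapping ranges within and between the groups. The part of segment counts that would have to move between segments to make a pair of libraries equal was 26.5% to 31.5% for pairs of MI libraries, 25.8% to 37.3% for pairs of MI+RDN libraries and 25.5% to 38.3% for mixed pairs. Spearman correlations across the 176 segments, which are not independent replicates and share the annotation and its read assignment, ran from 0.690 to 0.773 for pairs of MI libraries, from 0.675 to 0.780 for pairs of MI+RDN libraries and from 0.645 to 0.806 for mixed pairs.

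Segment levels were tested in the fit across all genes, in which 173 of the 176 members were kept. Igkv4-54, Igkv4-71 and Ighv5-15 did not pass the filter on low counts. None of the 173 passed edgeR's quasi-likelihood test at a Benjamini-Hochberg adjusted p under 0.05, where 1.01% of all 14849 genes did. At an unadjusted p under 0.05 there were 14 higher and 4 lower members, 18 in all or 10.4%, against 19.9% of all genes (9.83% higher and 10.1% lower). The CPM of the groups did not overlap for 5 higher and 1 lower members, 6 in all or 3.47%, against 26.2% of all genes (12.4% higher and 13.7% lower). The median log2 fold change of the members was 0.25, with 105 positive and 68 negative, beside 0.0080 over all genes. It turned to -0.41 without MI+RDN replicate 3. By the DESeq2 Wald test 7 of 176 members passed, all higher (Igkv6-15, Igkv19-93, Igkv4-68, Ighv1-66, Ighv1-4, Igkv4-54 and Igkv4-71). That tool called 1050 of 24315 genes in either direction, and members passed at no higher rate than that. By direction, 7 members and 542 genes were higher, a higher rate for members, and 0 members and 508 genes were lower. By edgeR without MI+RDN replicate 2, 5 of 175 members passed beside 67 of 15293 genes, a higher rate. Igkv4-54 and Igkv4-71, in both sets, took at most 0.00994% of segment counts in any MI library. Most counts that made them members therefore came from MI+RDN libraries.

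Replicates differed more for V segments than for other genes of like level. The biological coefficient of variation, edgeR's estimate of the spread between replicates beyond counting error, had a median of 53.2% over the 173 members and of 17.4% over all genes. Over the 3536 other genes with a mean between 3.33 and 16.1 CPM, the middle range of the members, it was 19.9%. It exceeded the common value of 20.7% in 172 of the 173 members, from 17.6% for Ighv10-1 to 182% for Igkv8-34.

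**Figure D4:**
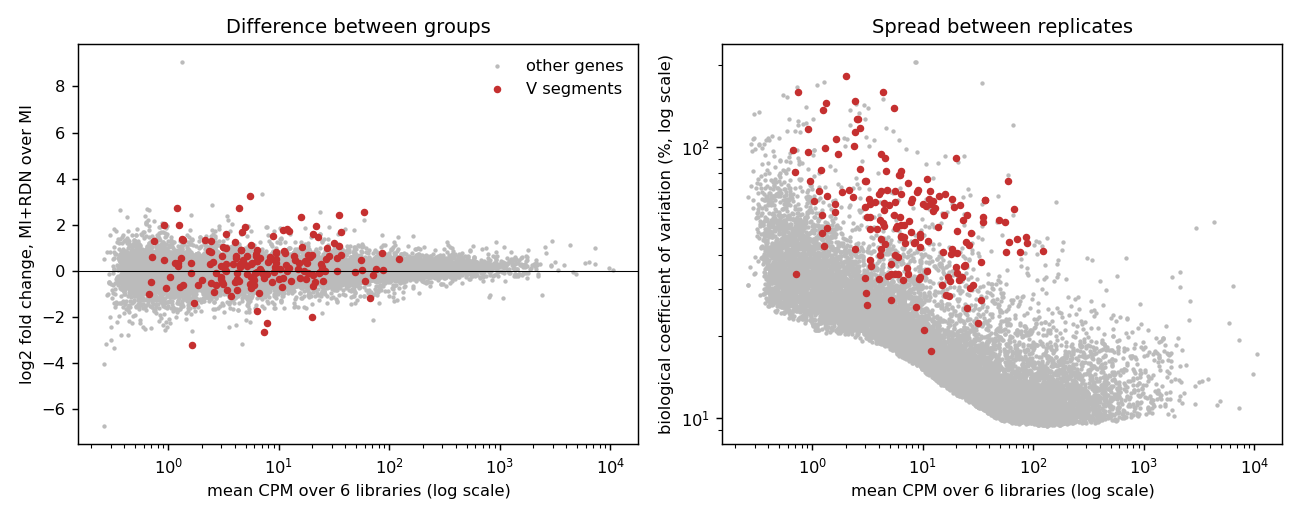
Log2 fold change of MI+RDN over MI (left) and biological coefficient of variation between replicates (right, percent on a log scale) against mean CPM (log scale) for 173 V segments (red) and the other genes tested (grey). The segments lie on both sides of 0 on the left and mostly above the grey cloud on the right, with a median of 53.2% against 17.4% over all genes.

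The member with the lowest p was Igkv6-15, at 17.0, 13.9 and 27.1 CPM for MI against 53.1, 37.2 and 42.8 for MI+RDN. All MI+RDN libraries were above all MI libraries, with means of 19.3 ± 6.89 and 44.3 ± 8.10 CPM (SD, n = 3), a log2 fold change of 1.20 (SE 0.248) and an adjusted p of 0.0634 by edgeR's test with Benjamini-Hochberg adjustment. As a share of segment counts it stood at 0.805%, 1.02% and 1.01% for MI against 2.89%, 1.98% and 1.07% for MI+RDN, so that MI+RDN replicate 3 was close to the MI libraries on that scale. Igkv19-93 had a log2 fold change of 1.49 (edgeR Benjamini-Hochberg adjusted p = 0.0991), at 9.37 to 14.2 CPM for MI against 40.0, 14.4 and 44.9 for MI+RDN. Its lowest MI+RDN library was next to the highest MI library. Ighv1-66 and Ighv1-4 were low, at 1.31 to 2.13 and 1.62 to 2.89 CPM for MI against 2.27 to 7.74 and 3.84 to 8.60 for MI+RDN. Ighv1-9 stood at 11.4, 6.04 and 14.9 CPM for MI against 18.3, 31.1 and 128 for MI+RDN, with a log2 fold change of 2.44 (SE 0.705) that rested mostly on MI+RDN replicate 3.

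On the lower side, Igkv3-5 stood at 13.8, 2.34 and 22.8 CPM for MI against 0.924, 3.91 and 3.27 for MI+RDN, a log2 fold change of -2.27 (edgeR Benjamini-Hochberg adjusted p = 0.168). The groups overlapped through MI replicate 2. Ighv1-36 had a log2 fold change of -2.66 that came with 29.1 CPM in MI replicate 2 and at most 6.28 in the other libraries. Igkv8-16, Igkv4-69 and Ighv1-58 had log2 fold changes of -0.95, -3.22 and -0.82, and Igkv4-69 had 0 to 111 counts per library. Ighv3-8 was the lower member without overlap, at 9.12 to 12.04 CPM for MI against 4.39 to 9.10 for MI+RDN.

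As shares of segment counts, 15 of 176 members (8.52%) did not overlap between the groups, 5 higher and 10 lower in MI+RDN. With arbitrary group labels, 3 against 3 libraries separate with a probability of 0.1, and this portion is not above that. It does not show that the groups are alike either. By CPM, a different set of 5 higher and 1 lower of the 173 tested members did not overlap. On the share scale the higher ones were Igkv6-15, Ighv1-66, Ighv1-9, Ighv1-74 and Igkv4-71. The lower ones by share included Igkv10-96, Ighv1-55 and Ighv5-17. Igkv4-71 had 0, 0 and 1 counts in MI replicates 1 to 3 against 62, 9 and 37 in MI+RDN replicates 1 to 3. With a sum of 109, it met the member minimum of 100 only through MI+RDN. Its place among the higher ones therefore follows in part from the choice of members. Ighv1-55 took 1.55%, 0.994% and 1.04% for MI against 0.777%, 0.666% and 0.654% for MI+RDN. Ighv1-74, Ighv1-55 and Ighv5-17 were chosen after their values were seen.

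Segments were then grouped by V family, as given in the symbol, within the heavy and kappa loci. Of 29 families with at least 1% of their locus in any library, 2 (6.90%) had usage that did not overlap between the groups. That portion is likewise not above the probability of 0.1 under arbitrary group labels. Igkv6, which holds Igkv6-15 and Igkv6-23, took 5.36%, 5.33% and 5.03% of kappa segment counts for MI against 16.1%, 6.93% and 6.07% for MI+RDN. Igkv14 took 4.49%, 5.61% and 3.69% for MI against 2.77%, 2.98% and 3.39% for MI+RDN. The largest heavy family, Ighv1 with 42 members, took 43.5% ± 5.77 for MI against 41.9% ± 6.61 for MI+RDN (SD, n = 3). Among the kappa families, Igkv1 took 12.8% to 29.5% over the libraries, with both its lowest and its highest value in MI+RDN. Its means were 21.1% for MI and 20.6% for MI+RDN. Igkv4 took 11.3% to 25.6%, with its lowest value in MI and its highest in MI+RDN, and its groups overlapped. Igkv5 took 20.4% in MI replicate 1, where Igkv5-39 led, and 3.71% to 8.68% in the others. Ighv3 took 18.8% in MI+RDN replicate 2, where Ighv3-6 led, and 2.74% to 13.3% in the others.

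**Figure D5:**
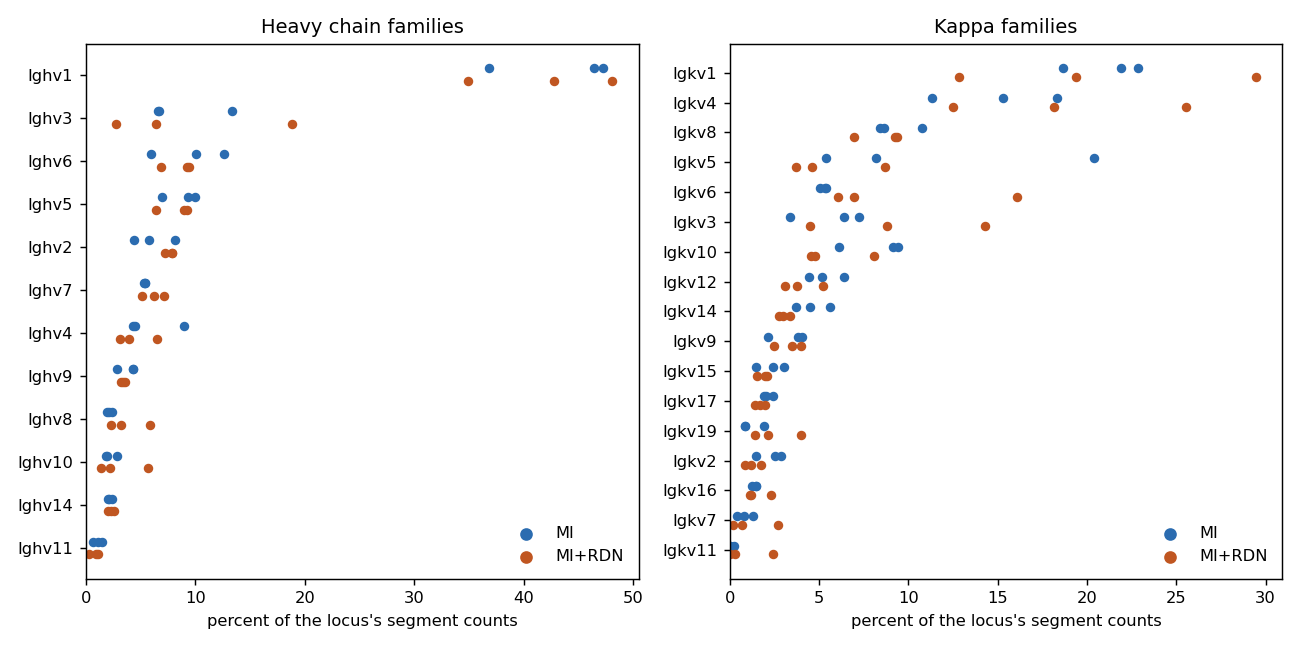
Usage of 12 heavy and 17 kappa V families as percent of the locus's segment counts (horizontal axis, linear) in each MI (blue) and MI+RDN (orange) library. The groups overlap in all families except Igkv6 and Igkv14, and single libraries stand apart for Igkv5 (20.4% in MI replicate 1) and Ighv3 (18.8% in MI+RDN replicate 2).

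Segment sets known from B-1 cells were looked up after the data had been seen, because B-1 cells can carry CD11b. Ighv11-2 with Igkv14-126, and Ighv12-3 with Igkv4-91, are the classical combinations of B-1 cells that bind phosphatidylcholine. Ighv11-2 stood at 8.19 ± 3.14 CPM for MI against 7.46 ± 5.41 for MI+RDN, and Igkv14-126 at 19.0 ± 9.79 and 17.8 ± 11.7 (SD, n = 3). Ighv12-3 stood at 1.58 ± 0.832 and 0.978 ± 0.493 CPM, and Igkv4-91 at 6.32 ± 3.55 and 5.31 ± 3.54. As shares of segment counts, Ighv11-2 took 0.113% to 0.558% and Ighv12-3 0.0364% to 0.113% of each library. The groups overlapped for these 4 segments.

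J segments, which the choice of members did not use, were read in the same table. Among the kappa J segments with 100 or more counts, Igkj1 took 40.9%, 36.3% and 35.5% of J counts for MI against 29.0%, 29.9% and 28.6% for MI+RDN, so that the groups did not overlap. The other kappa J segments (Igkj2, Igkj4 and Igkj5) and the 4 heavy J segments overlapped. Igkj2 took 27.6% to 30.2% for MI against 35.4%, 24.1% and 41.0% for MI+RDN. With 8 J segments compared, the smallest exact two-sided permutation p that 3 against 3 libraries allow is 0.1, and that of Igkj1 was 0.1 (0.8 after Benjamini-Hochberg adjustment over the 8).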

How the data were processed

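RNA of 6 libraries, 3 per group, was analysed. The authors deposited raw counts per Ensembl gene. FastQC 0.11.2, STAR and build GRCm39 are named per the submitters' processing notes, and libraries were strand-specific per the labels' protocols. The counting tool, its annotation and its handling of shared reads were not given in the sources used here. Symbols were matched by Ensembl ID for 55154 of 55335 genes. V segment sequences and gene classes came from GENCODE M21 on GRCm38, so no coordinates are given.

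Counts were fitted in R 4.3.3 with edgeR 4.0.16 (filterByExpr, TMM, quasi-likelihood test, Benjamini-Hochberg adjustment over 14849 genes, 0.05). In 3 simulated sets of these genes with 200 changed, 53.1% of 2-fold and 99.0% of 4-fold changes were recovered. Every gene was simulated at the common coefficient of variation of 20.7%, which 172 of the 173 members exceeded. These rates therefore do not apply to the V segments. DESeq2 1.42.0 and limma 3.58.1 were alternatives. Shares and indices used Python 3.11.15. A two-sided exact permutation test of 3 against 3 cannot go below 0.1. That test was planned for sums over members, but as the members were chosen with results known, those sums are given with no p. The edgeR p-values weigh a group difference against the spread between these libraries, with the estimate of spread shared in part across genes. Permutation p-values count arrangements of the group labels. Exact binomial intervals (95%) and the limit for a count of 0 (3 counts) cover counting error only, and reads without molecular identifiers are not independent molecules.

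Members, lists and tests were chosen with earlier results of these data known. Named segments are the 10 with the highest mean share, the 3 leading in each library, those with the lowest p (5 in each direction, as none passed), up to 10 held mostly by 1 library, and those at the count minimum. Library totals are in the report, and no batch is named in the labels.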

Additional observations from a re-analysis of the deposited data

How the results depend on the processing

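Between-group differences (MI+RDN minus MI) in the sums over segments changed sign under at least 1 alternative for 4 of 5 sums, and the heavy chain share kept its negative sign under all that were run. The inverse Simpson difference of -1.32 became 0.994 without Igkv1-135, the segment with the highest share in any library. The difference in the share of the 10 leading segments, 0.166 percentage points, became -0.317 with a minimum of 1000 counts and -0.623 without Igkv1-135. The lambda difference of -0.230 percentage points became 0.272 without Igkv1-135. With any 1 library left out, the differences ranged from -0.0381 to 0.0660 percentage points (segment share of all counts), -6.15 to 4.41 (inverse Simpson), -2.44 to 2.44 (10 leading segments), -1.22 to 1.64 (lambda) and -2.17 to -0.828 (heavy chain share). Families without overlap then numbered 3 to 9, against 2, in comparisons with fewer libraries.

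Counts of genes past the threshold moved from 150 to 475 without scaling factors, 21 without a filter, 290 at a mean of at least 5 CPM, 1050 by DESeq2 and 87 with the replicate block, and ranged from 0 to 67 with any 1 library left out. Segments past it numbered 7 by DESeq2, 1 with the replicate block (Ighv1-74) and 0 to 5 with any 1 library left out. Over all genes, correlations of same-numbered libraries (-0.0652 to 0.0640) did not show pairing. Over the tested members they were 0.136, -0.00928 and 0.0727 for replicates 1 to 3, against -0.147 to 0.0616 for differently numbered libraries. The median log2 fold change of segments ranged from -0.41 to 0.50 with any 1 library left out. The causes were not tested. No symbol was marked -ps, so that alternative changed nothing.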
